A study of Equus caballus with 3 samples.

Results

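Small leucine-rich proteoglycans (SLRPs) are secreted proteins of the extracellular matrix, and 8 of them, encoded by *DCN*, *BGN*, *ASPN*, *LUM*, *FMOD*, *PRELP*, *OMD* and *OGN*, are described here in cultured equine mesenchymal stromal cells (MSCs). The genes were chosen by name, and all 8 had a row in each matrix, out of 29850 gene rows that the matrices shared. The cells were grown from fat (adipose tissue, AT), from marrow of bone (BM) and from the peripheral blood (PB) of 1 healthy warmblood mare aged 10 years, with no treatment named in the labels, and were captured by droplet scRNA-seq after passaging in culture. Each source was a single library, so source and library cannot be told apart, the data allow no test, and the 95% intervals given below describe counting error and nothing else. The sources were read from the sample titles, whereas the source name attached to every sample refers to blood mononuclear cells.

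SLRPs share a core of leucine-rich repeats, carry chains of chondroitin, dermatan or keratan sulfate on some members, and bind collagen fibrils, where they regulate fibril width and spacing. Several also bind growth factors of the TGF-β family. Stromal cells of connective tissue are their main producers, and decorin and lumican are widely used as transcripts of fibroblast-like cells. *DCN* (decorin), *BGN* (biglycan) and *ASPN* (asporin) form class I. *LUM* (lumican), *FMOD* (fibromodulin), *PRELP* (prolargin) and *OMD* (osteomodulin) form class II, and *OGN* (osteoglycin, also called mimecan) belongs to class III. The matrices placed *DCN* and *LUM* on chromosome 28, *ASPN*, *OMD* and *OGN* on chromosome 23, *FMOD* and *PRELP* on chromosome 5, and *BGN* on chromosome X. In the gene order of the RefSeq annotation of assembly TB-T2T, *KERA*, *LUM* and *DCN* were consecutive, as were *ECM2*, *ASPN*, *OMD* and *OGN*, and *FMOD*, *PRELP* and *OPTC*.

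Barcodes with 2500 to 15000 unique molecular identifiers (UMIs, each tagging 1 captured transcript) and at most 3% mitochondrial UMIs were counted as cells, which left 5403 AT-, 5580 BM- and 5318 PB-derived MSCs with between 39980656 and 41622445 UMIs per library. Levels are CPM, the UMIs of a gene summed over these cells and scaled to 1000000 UMIs of all genes. UMIs of this protocol are counted near transcript ends, so levels were not divided by gene length, and how well the end of each gene was captured was not measured. The 5 MSC markers *THY1*, *CD44*, *ENG*, *ITGB1* and *B2M* were detected in every library and summed to between 2345 and 2744 CPM. *THY1*, at 665, 531 and 90.5 CPM in AT, BM and PB, and *CD44*, at 691, 285 and 522 CPM, differed past 2-fold between some libraries. *ENG*, *ITGB1* and *B2M* did not, and *B2M* was the largest part of each sum. The leukocyte gene *PTPRC* had 0 UMIs in all libraries, and 9 blood and immune markers summed to between 12.0 and 20.8 CPM. All 5318 barcodes kept for PB also occurred in the AT matrix, 5279 of them with too few UMIs to be kept there. Those AT barcodes, at a median of 827 UMIs, held 4387 CPM of *LUM* and 1152 CPM of *DCN*, close to the PB library. Of the 5403 barcodes kept for AT, 119 also occurred in the BM or PB matrix. How many UMIs of the PB library the AT matrix may hold, among its kept cells too, was not tested, and this bears on every AT value below. Between 72 and 77 barcodes per library were kept in more than 1 library, and without them no count of members past a fold between sources, or between cycling and other cells of a source, moved by more than 1.5 times. Counts between clusters, within clusters and by *ASPN* were not repeated without them.

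All 8 genes were detected in every source, and each source had its own balance among them. *LUM* was the most abundant SLRP transcript in BM- and PB-derived MSCs, whereas *DCN* was in AT-derived MSCs. *ASPN* was plentiful in AT and PB and scarce in BM, *OGN* and *PRELP* were highest in AT, *FMOD* was highest in BM, and *OMD* was low in AT alone. Added together, the 8 genes made up 3992 CPM in AT, 5838 CPM in BM and 6855 CPM in PB.

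**Figure D1:**
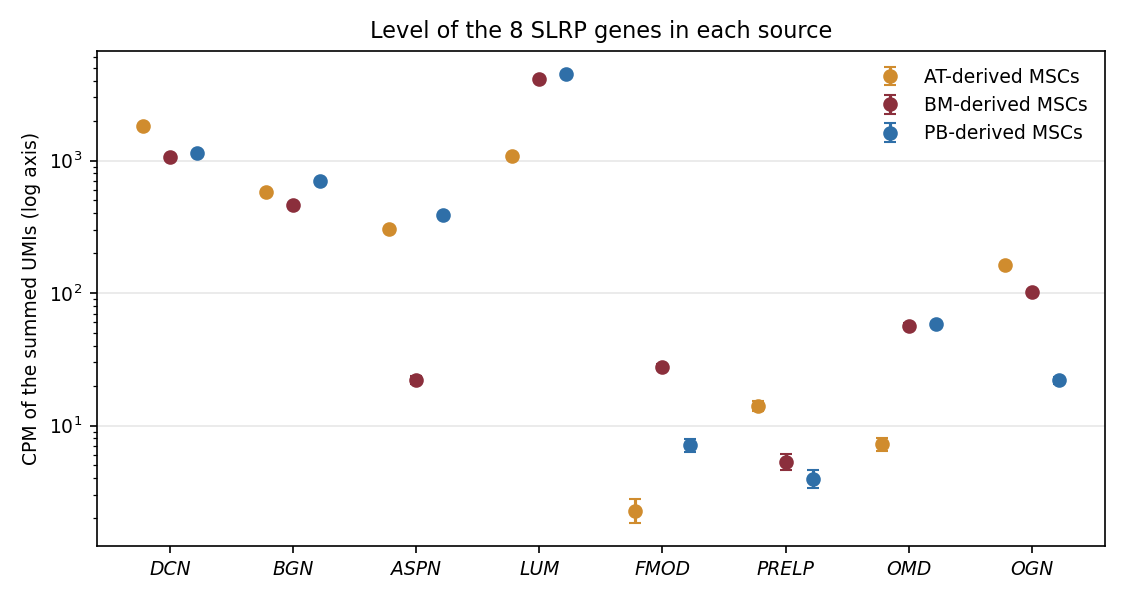
Level of each SLRP gene (x axis) as CPM of the summed UMIs (y axis, log scale) in AT- (orange), BM- (red) and PB-derived MSCs (blue), 1 library each, with exact 95% Poisson intervals that are mostly narrower than the points. *ASPN* in BM lies at 22.1 CPM against 303 and 389 CPM, and the 3 points of *FMOD* are spread from 2.28 to 27.6 CPM.

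Among class I members, *DCN*, whose product coats collagen fibrils and sequesters TGF-β, reached 1831 CPM (95% interval 1817 to 1844) in AT, 1069 CPM (1059 to 1079) in BM and 1144 CPM (1133 to 1154) in PB. AT was thus 1.71-fold (1.69 to 1.73) above BM and 1.60-fold (1.58 to 1.62) above PB. Its paralog *BGN*, which is known for roles in bone and as a ligand of innate immune receptors, was at 582 CPM in AT, 461 CPM in BM and 696 CPM in PB. The 3 libraries stayed within 1.51-fold (1.48 to 1.54) of each other for *BGN*, the narrowest spread of the members. *ASPN*, whose product carries an aspartate-rich stretch and competes with decorin for collagen, was 13.7-fold (12.8 to 14.7) higher in AT and 17.6-fold (16.4 to 18.8) higher in PB than in BM. AT and PB differed for *ASPN* by 1.28-fold (1.25 to 1.31), with PB the higher.

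Among class II members, *LUM*, a keratan sulfate proteoglycan needed for regular fibril spacing in the cornea, stood at 1090 CPM (1080 to 1100) in AT, 4095 CPM (4075 to 4114) in BM and 4535 CPM (4514 to 4555) in PB. AT was 3.76-fold (3.7 to 3.8) below BM and 4.16-fold (4.12 to 4.20) below PB. *FMOD*, which competes with lumican for collagen and guides cross-linking in tendon, was at 2.28 CPM in AT, 27.6 CPM in BM and 7.11 CPM in PB. Its order, AT below PB below BM, was shared with no other member, and BM was 12.1-fold (9.80 to 15.2) above AT and 3.89-fold (3.42 to 4.43) above PB. *OMD*, a protein of mineralized tissue, was at 7.23 CPM in AT, 56.6 CPM in BM and 58.2 CPM in PB. The AT library was 7.83-fold (6.93 to 8.88) below BM, and the interval of the PB to BM ratio, 0.97 to 1.09, included 1. With all barcodes of at least 500 UMIs, which add those AT shares with PB, the log2 difference of *OMD* went from -2.81 to -2.13 for AT minus BM and from -2.85 to -2.20 for AT minus PB.

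*PRELP*, which anchors basement membranes to the underlying collagen, had the opposite order to *OMD*, with 14.1 CPM in AT, 5.34 CPM in BM and 3.96 CPM in PB. The AT library was 2.64-fold (2.25 to 3.10) above BM and 3.55-fold (2.98 to 4.25) above PB. The class III member *OGN*, a small keratan sulfate-bearing protein first isolated from bone, was at 162 CPM in AT, 102 CPM in BM and 21.9 CPM in PB. *OGN* therefore had PB as its low source, 7.39-fold (6.89 to 7.93) below AT and 4.65-fold (4.3 to 5.0) below BM. *ASPN*, *OMD* and *OGN*, which are neighbours in the genome, had 3 different low sources, BM, AT and PB in that order. *LUM* and *DCN*, also neighbours, were ordered oppositely between AT and the other libraries.

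Counted past 2-fold on the log2(CPM + 1) scale, 5 of 8 members differed between AT and BM, 2 higher in AT (*ASPN* and *PRELP*) and 3 lower (*LUM*, *FMOD* and *OMD*). Of 11788 genes with at least 100 UMIs over the libraries, 11.0% passed in this comparison, 2.59% higher and 8.40% lower in AT. Between PB and BM, 3 members passed, *ASPN* higher and *FMOD* and *OGN* lower in PB, where 8.29% of genes did, 2.37% higher and 5.92% lower. With a pseudocount of 25 CPM in place of 1, *FMOD* no longer passed in any of the 3 comparisons, and *PRELP* in neither comparison with AT. Between AT and PB, 5 members passed, *OGN* and *PRELP* higher and *LUM*, *OMD* and *FMOD* lower in AT, where 10.4% of genes did, 4.45% higher and 5.97% lower. The median log2 difference of the members was 0.50 for AT minus BM, 0.07 for PB minus BM and -0.31 for AT minus PB, and that of the tested genes was -0.24, -0.20 and -0.04. With TMM factors, which move the median of the tested genes to 0.01 for both comparisons with BM, the background split for AT against BM became 3.97% higher and 5.90% lower, and *DCN* also passed, at a log2 difference of 1.06. The direction of *DCN*, *LUM* and *OMD* between PB and BM depended on which cells were used. Without BM cluster 4, described below, their log2 differences, PB minus BM, went from 0.10, 0.15 and 0.04 to -0.02, -0.03 and -0.17.

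The members were also taken as shares of the UMIs of all 8 genes, which move with the level of *LUM*, and by which *BGN* and *ASPN* were higher in AT than in PB although their CPM was lower. *LUM* supplied 70.1% of the SLRP UMIs in BM, 66.2% in PB and 27.3% in AT, while *DCN* supplied 18.3%, 16.7% and 45.9%. *BGN* made up 14.6% in AT, 7.89% in BM and 10.2% in PB, and *ASPN* made up 7.60%, 0.379% and 5.68%. *OGN* contributed 4.05% in AT, 1.74% in BM and 0.320% in PB. *FMOD*, *PRELP* and *OMD* each stayed below 1% in every source. Class II genes other than *LUM* were thus a small part of the SLRP transcripts of every source.

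**Figure D2:**
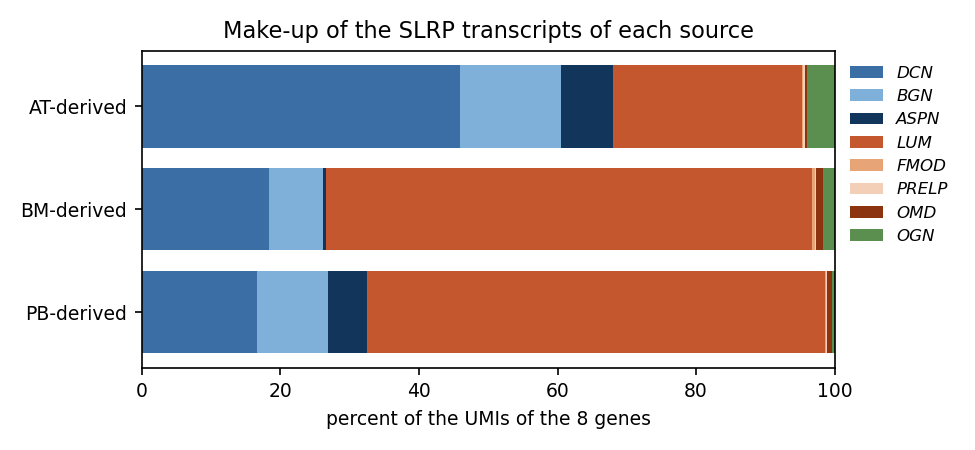
Percent of the UMIs of the 8 SLRP genes that each gene supplied (x axis) in AT-, BM- and PB-derived MSCs (bars, 1 library each), with class I in blue, class II in orange to brown and *OGN* in green. *LUM* fills 70.1% of the BM bar and 66.2% of the PB bar, and *DCN* 45.9% of the AT bar.

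The balance was also seen cell by cell. To make cells comparable, each cell was thinned at random to 2500 UMIs, and since every kept cell had at least this number none was left out. *DCN* was the leading SLRP in 52.5% of AT-derived MSCs and *LUM* in 21.7%, whereas *LUM* led in 91.5% of BM- and 92.5% of PB-derived MSCs. Cells with tied leaders or no SLRP UMI made up 15.5% in AT, 4.55% in BM and 3.57% in PB. A median of 3 and at most 7 of the 8 genes were detected per thinned cell in each source. Only 10 AT-, 13 BM- and 4 PB-derived cells held no SLRP UMI at this depth.

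After thinning, *DCN* was detected in 93.8% of the AT cells, 84.4% of the BM cells and 85.4% of the PB cells (98.4%, 97.6% and 97.0% before thinning), and *LUM* in 85.0%, 99.0% and 99.7% (96.7%, 99.9% and 99.98%). *BGN* was found in 72.2%, 65.0% and 79.5% (92.4%, 91.6% and 97.4% before thinning). *ASPN* had shares of 41.8% (AT), 3.94% (BM) and 50.8% (PB) after thinning, and of 63.0%, 8.60% and 73.3% before it. In BM the 890 *ASPN* UMIs came from 480 of 5580 cells, of which the richest held 17. *OGN* was found in 30.4%, 18.3% and 5.06% of thinned cells (57.4%, 34.0% and 13.3% before), and *OMD* in 1.72%, 12.1% and 13.3% (4.98%, 26.3% and 31.7%). *FMOD* was found in 0.611%, 6.76% and 1.94% of thinned cells (1.63%, 15.9% and 5.27%), and *PRELP* in 3.65%, 1.47% and 0.809% (9.42%, 3.53% and 2.90%). The thinned shares ranked the sources as CPM did for each of the 8 genes. The cultures held no population known to be free of SLRP transcripts, and the share of cells that would show a UMI through free RNA was therefore not measured. Barcodes with under 1000 UMIs, which can hold free RNA or broken cells, had intervals that included the level of the cells for 7 of 8 members in BM and 6 in PB, such as 33.5 CPM of *ASPN* in BM (3 UMIs, 6.91 to 98 CPM). *BGN* was below the cells in both sources, and *LUM* was above them in PB. In AT, where most such barcodes were shared with PB, 5 members were above the cells, among them *LUM* (4717 CPM) and *OMD* (61.9 CPM), and 3 below. CPM is a share of the UMIs of a barcode, so this comparison cannot say how many UMIs of a cell were free RNA. Barcodes under 1000 UMIs summed to only 89507 UMIs for BM and 119677 for PB, but to 2958499 for AT. The intervals of the members were therefore wider for BM and PB, and included the level of the cells more easily. The same count was not made over all tested genes, so it carries no finding about the members or the sources.

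**Figure D3:**
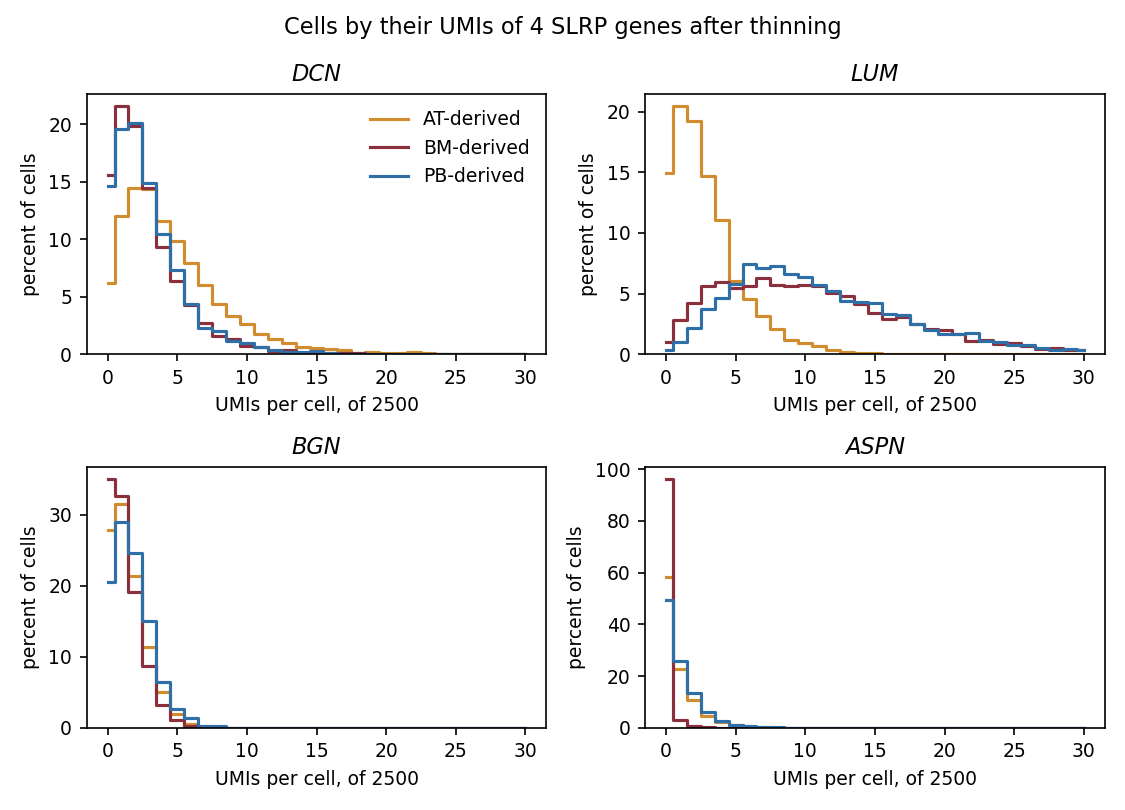
Percent of cells (y axis) by the number of UMIs of *DCN*, *LUM*, *BGN* and *ASPN* per cell after thinning to 2500 UMIs (x axis, shown up to 30) in AT- (orange), BM- (red) and PB-derived MSCs (blue). *LUM* had a median of 2 UMIs in AT and 10 in BM and PB, and *ASPN* was at 0 in most AT and nearly all BM cells.

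The spread over cells differed among members. The Fano factor (variance over mean, 1 for counting noise alone) of thinned UMIs was highest for *LUM* in BM (5.28) and PB (4.44) and lower in AT (2.36), where the mean was lower too. *DCN* had 3.24 in AT, 2.79 in BM and 2.53 in PB. *BGN*, although detected in most cells, stayed at 1.25, 1.21 and 1.18, close to counting noise. *ASPN* was at 1.83, 1.81 and 1.90, at means of 0.759, 0.0548 and 0.982 thinned UMIs per cell, so that the values cannot be compared without the means. The tenth of cells richest in *ASPN* held 40.6% of its UMIs in AT and 38.3% in PB, against 26.7% and 29.7% for *DCN*, while in BM only 8.60% of cells had any before thinning.

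To see whether SLRPs differed with proliferation, cells with at least 1 UMI of *TOP2A*, which encodes a topoisomerase of dividing cells, were set against the remaining cells of the same library. No row carried the symbol *MKI67*, so *TOP2A* alone defined these cycling cells, which numbered 412 in AT (7.63%, 95% Clopper-Pearson interval 6.93 to 8.37), 709 in BM (12.7%, 11.8 to 13.6) and 315 in PB (5.92%, 5.30 to 6.59). The cyclin-dependent kinase gene *CDK1*, which was not used to choose them, was 31.9-fold, 16.1-fold and 30.8-fold higher in the cycling cells of AT, BM and PB. Cycling cells were deeper, with a median of 9573 against 6640 UMIs in BM and of 10267 against 7658 in PB. Among cells with 6000 to 9000 UMIs, where medians were closer, 2, 5 and 6 members were more than 1.5-fold lower in cycling cells of AT, BM and PB, where 11.1%, 9.29% and 16.0% of genes were, against 4, 7 and 7 members in all cells.

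All 8 members were lower in cycling cells than in other cells in all 3 sources, and 22 of the 24 intervals lay below a ratio of 1. Over the pairs of tested gene and source, 44.0% were lower and 13.2% had an interval below 1, a share that depends on UMIs per gene. Under other settings *LUM* and *FMOD* in AT and *PRELP* in PB were higher in cycling cells. The summed level of the 8 genes was 3109 against 4083 CPM in AT, 3211 against 6364 CPM in BM and 4372 against 7058 CPM in PB. Past 1.5-fold, 4 of 8 members were lower in cycling cells of AT (*ASPN*, *OGN*, *OMD* and *PRELP*), where 4.40% of 11787 genes were. In BM 7 of 8 members passed, where 8.29% of genes did, and in PB 7 of 8, where 5.57% did, with *BGN* the exception in both. The median log2 difference of the members, cycling minus other, was -0.70 in AT, -1.05 in BM and -0.89 in PB, and that of all tested genes lay between 0.05 and 0.06.

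**Figure D4:**
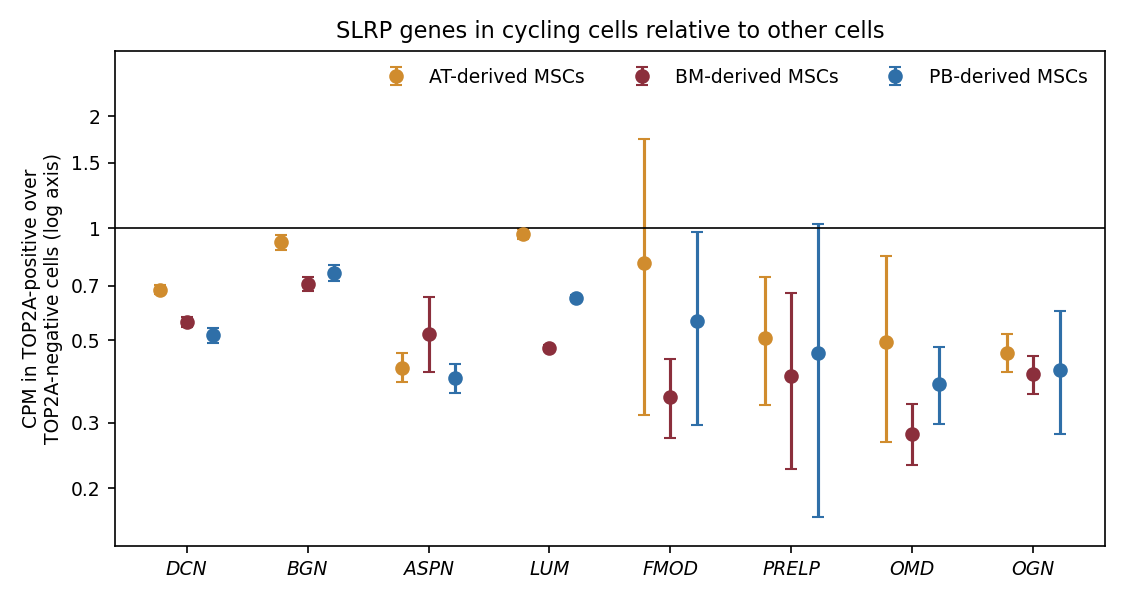
CPM in *TOP2A*-positive cells over CPM in *TOP2A*-negative cells (y axis, log scale) for each SLRP gene (x axis) in AT- (orange), BM- (red) and PB-derived MSCs (blue), with exact 95% intervals for counting error. All 24 points lie below 1, and the intervals of *FMOD* in AT and *PRELP* in PB cross it.

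*ASPN* had the lowest ratio of the abundant members in AT, at 135 CPM in cycling and 321 CPM in other cells (ratio 0.42, 0.39 to 0.46), and in PB, at 161 and 408 CPM (0.40, 0.36 to 0.43). In BM it was at 12.5 and 24.0 CPM (0.52, 0.41 to 0.65). *DCN* was at 1290 and 1886 CPM in AT (0.68, 0.66 to 0.70), 644 and 1154 CPM in BM (0.56, 0.54 to 0.58) and 611 and 1187 CPM in PB (0.51, 0.49 to 0.54). *BGN* moved least among class I genes, with ratios of 0.92 (0.88 to 0.96) in AT, 0.71 (0.68 to 0.74) in BM and 0.76 (0.72 to 0.80) in PB.

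Among the 4 members with the most UMIs, the ratio of *LUM* spanned the widest range over the sources. Its ratio was 0.96 (0.93 to 1.0) in AT, at 1054 and 1094 CPM, but 0.48 (0.47 to 0.48) in BM, at 2134 and 4488 CPM, and 0.65 (0.64 to 0.66) in PB, at 3024 and 4658 CPM. *OMD* had the lowest ratio of all in BM, 0.28 (0.23 to 0.34), at 18.0 and 64.3 CPM, and was at 0.49 (0.27 to 0.84) in AT and 0.38 (0.30 to 0.48) in PB. *FMOD* was at 0.35 (0.27 to 0.45) in BM and 0.56 (0.30 to 0.98) in PB, and in AT its 7 UMIs in cycling cells left an interval of 0.32 to 1.74. *PRELP* was at 0.51 (0.33 to 0.74) in AT and 0.40 (0.23 to 0.67) in BM, and in PB 6 UMIs left an interval of 0.17 to 1.03. *OGN* was similar in the 3 libraries, at 0.46 (0.41 to 0.52), 0.40 (0.36 to 0.45) and 0.42 (0.28 to 0.60). After thinning, the share of cells with a UMI was lower in cycling cells in 22 of the 24 pairs of member and source. The exceptions were *LUM* in AT (89.1% against 84.7%) and *PRELP* in PB (0.95% against 0.80%), whose CPM pointed the other way, so no order was read from these shares. This count was not made over all tested genes, so it carries no finding about the members.

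Cells were also grouped by phases called from S and G2M gene sets. The G2M set includes *TOP2A* itself, so this grouping and the *TOP2A* split are not independent. Of cells called G2M, 28.4% in AT, 48.7% in BM and 22.3% in PB were *TOP2A*-positive. Of those called S, 8.16%, 25.8% and 5.91% were. The *TOP2A*-negative cells above therefore included many called S or G2M. In 21 of 24 pairs of member and source the level was lower in S than in G1 cells (42.0% over all tested genes), the others being *LUM* and *FMOD* in AT and *OGN* in PB. In 23 of the 24 the level was lower in G2M than in G1 cells (42.6% over all tested genes), and in all 24 it was lower in G2M than in S cells (47.9%). *ASPN* was at 358, 259 and 164 CPM in G1, S and G2M cells of AT, 25.9, 20.2 and 10.1 CPM in BM, and 442, 375 and 209 CPM in PB. *OMD* in BM was at 77.7, 28.6 and 11.2 CPM. *LUM* in AT, the pair that was not lower in G2M than in G1 cells, was at 1001, 1227 and 1216 CPM, whereas in BM it was at 4991, 3025 and 2011 CPM. Grouping S with G2M cells and setting them against G1 cells left 1 member more than 1.5-fold lower in AT (0.781% of genes were), 7 in BM (7.75%) and 0 in PB (0.568%), and *LUM* in AT was then higher in S and G2M cells, at a log2 difference of 0.29.

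Ratios were then computed inside clusters. The cells of each source were clustered with the 8 genes left out of the variable genes, and cycling cells were compared with other cells inside the 6 clusters that held at least 50 of both. Of these 48 ratios, 17 had intervals below 1, 1 had an interval above 1 (*BGN* in PB cluster 6, 1.15, 1.05 to 1.26), and 30 included 1. Over all tested genes, 4.77% of such ratios had intervals below 1 and 6.35% above it, again depending on UMIs per gene. BM clusters 1, 3 and 4 held 3, 4 and 6 of the members' intervals below 1. AT clusters 3 and 7 held 0 and 2, and PB cluster 6 held 2. In AT cluster 7, 52.3% of cells were *TOP2A*-positive. There *DCN* was at 1012 CPM in cycling and 999 CPM in other cells (1.01, 0.95 to 1.08). *ASPN* was at 73.8 and 93.9 CPM (0.79, 0.63 to 0.98), and *LUM* at 1026 and 1350 CPM (0.76, 0.72 to 0.81). In BM cluster 4, *ASPN* was at 16.9 and 41.5 CPM (0.41, 0.29 to 0.57) and *OGN* at 45.8 and 79.6 CPM (0.58, 0.46 to 0.71). In BM cluster 3, *LUM* was at 2544 and 3647 CPM (0.70, 0.68 to 0.72). Of the cells of AT cluster 7, 100% were called S or G2M, and 89.9% of those of BM cluster 4, so *TOP2A*-negative cells there were mostly called S or G2M too.

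Levels varied over the 7 AT, 7 BM and 10 PB clusters. The clusters are numbered by size and left unnamed. Among members with at least 20 CPM in a source, and clusters of at least 100 cells, the highest cluster was more than 2-fold above the lowest for 4 of 5 members in AT (all but *BGN*), where 19.5% of genes were. The same held for 7 of 7 in BM, where 33.4% of genes were, and for 6 of 6 in PB, where 41.6% were.

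**Figure D5:**
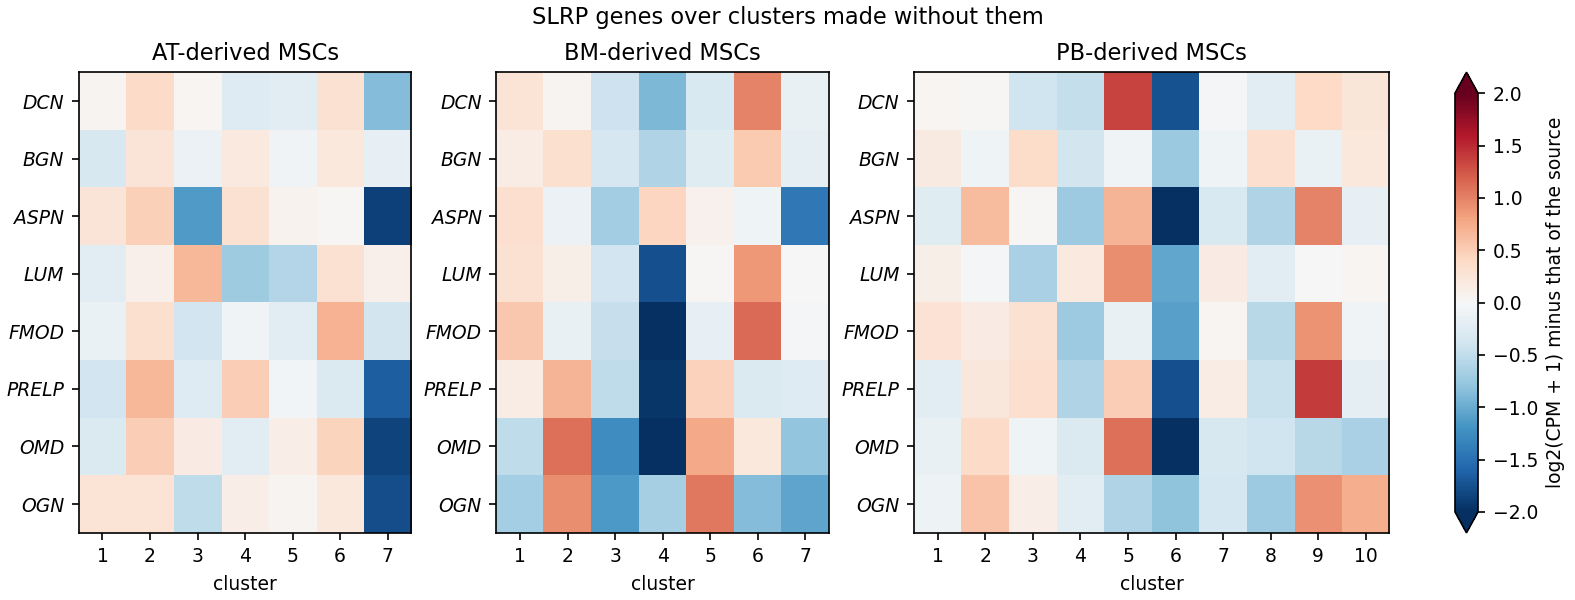
Level of each SLRP gene (rows) in each cluster (columns, numbered by size) as log2(CPM + 1) minus the value of the whole source, in AT-, BM- and PB-derived MSCs (panels), with red above and blue below the source and the colour scale limited to 2 in size. AT cluster 7, BM cluster 4 and PB cluster 6 are the bluest columns, with *DCN* at 1007, 572 and 340 CPM.

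In AT, cluster 7, led by the replication genes *CLSPN* and *UHRF1*, was the lowest for *DCN* (1007 CPM), *ASPN* (82.4 CPM) and *OGN* (46.7 CPM) but close to the source average for *LUM* (1165 CPM). Cluster 2, in which the scavenger receptor gene *SCARA5* was among the leading genes, was the highest for *DCN* (2379 CPM), *BGN* (698 CPM), *ASPN* (420 CPM) and *PRELP* (22.8 CPM). *LUM* peaked elsewhere, at 1731 CPM in cluster 3, which was led by the mitotic genes *CDKN3* and *CDCA3* and had only 138 CPM of *ASPN*. Its lowest level, 664 CPM, was in cluster 4. Cluster 1, led by the contractile genes *DES*, *ACTG2* and *CNN1*, was the lowest for *BGN* (464 CPM).

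In BM, cluster 6, with *LENEP* and the protease gene *CTSK* among its leading genes, was the highest for *DCN* (2128 CPM), *LUM* (7448 CPM), *BGN* (663 CPM) and *FMOD* (62.0 CPM), though not for *ASPN* (20.7 CPM), *OMD* (65.6 CPM) or *OGN* (55.4 CPM). *OMD* and *OGN* were instead highest together, at 123 and 196 CPM in cluster 2, led by *DPT*, which encodes a decorin-binding matrix protein, and at 96.8 and 214 CPM in cluster 5. Cluster 4, of 653 cells led by the homeobox gene *HMX3* and the calcitonin gene *CALCA*, was the lowest for *LUM* (1207 CPM), *DCN* (572 CPM), *BGN* (305 CPM), *FMOD* (2.59 CPM) and *OMD* (7.13 CPM). Its *ASPN* level was 30.2 CPM (26.0 to 34.8), with an interval that overlapped that of cluster 1, 28.1 CPM (24.8 to 31.7). In this cluster 41.0% of cells were *TOP2A*-positive. Without it, 6 of the 8 members were more than 1.5-fold lower in cycling cells of BM, where 6.99% of genes were.

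In PB, cluster 5, with *PIGK* and *LAMP2* among its leading genes, was the highest for *DCN* (2929 CPM), *LUM* (8652 CPM) and *OMD* (126 CPM). Cluster 6, led by *CLSPN* and *UHRF1* as AT cluster 7 was, was the lowest of those counted for all 8 members, among them *DCN* (340 CPM), *LUM* (2217 CPM), *ASPN* (75.9 CPM) and *BGN* (416 CPM). Cluster 9, of 141 cells led by the Wnt antagonist gene *SFRP1*, was the highest for *ASPN* (776 CPM), *OGN* (42.2 CPM), *FMOD* (14.1 CPM) and *PRELP* (12.1 CPM). *DCN* spanned 8.62-fold (8.15 to 9.11) over the PB clusters, *ASPN* 10.2-fold (8.96 to 11.7) and *BGN* 2.16-fold (2.05 to 2.28). The chemokine-rich cluster 7, led by *CCL7* and *CCL2*, had 1114 CPM of *DCN* and 5067 CPM of *LUM*, near the average of the source.

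Pairs of members were correlated over thinned cells, which share depth and library within a source. Of 84 Pearson coefficients (28 pairs in 3 sources of 5318 to 5580 cells), 4 were above 0.2. These were *DCN* with *LUM*, at 0.20 in AT, 0.47 in BM and 0.41 in PB, and *DCN* with *ASPN* in PB, at 0.22. Next came *LUM* with *ASPN* in PB, at 0.15, and *LUM* with *BGN* in BM, at 0.14. *LUM* with *OMD* reached 0.12 in both BM and PB, *OMD* with *OGN* 0.12 in BM, and *LUM* with *FMOD* 0.12 in BM. Weak coefficients of genes with few UMIs per cell carry no finding.

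Over 2553 to 2919 genes ranked per source, the gene most correlated with *LUM* was *DCN* in BM and PB but *TIMP1*, an inhibitor of matrix metalloproteinases, in AT, at 0.32. The fibrillar collagen genes *COL3A1* and *COL1A2* followed *DCN* for *LUM* in BM, at 0.40 and 0.39, while *S100A4* did in PB, at 0.39. *COL1A2* was the leading partner of *ASPN* in AT (0.21) and the second in PB (0.21) after *DCN*. The lowest coefficient of *LUM* in BM, -0.47, was with the histone variant gene *H2AFZ*.

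Cells with and without *ASPN* were compared for the other members. In thinned cells, 2256 AT-, 220 BM- and 2699 PB-derived cells had an *ASPN* UMI, which in the 220 BM cells could also be free RNA. *OGN*, which lies near *ASPN* in the genome, was 1.28-fold (1.18 to 1.39) higher in *ASPN*-positive cells of AT, 1.61-fold (1.28 to 1.99) in BM and 2.04-fold (1.59 to 2.63) in PB. *DCN* was 1.12-fold, 1.20-fold and 1.37-fold higher. *OMD* was 1.44-fold (1.25 to 1.67) higher in PB, with intervals that included 1 in AT and BM. Past 1.5-fold, 0 of 7 members were higher in AT (2.17% of genes were), 1 in BM (9.53%), *OGN*, and 2 in PB (1.70%), *OGN* and *PRELP*. *PRELP* in PB rested on 29 against 15 thinned UMIs, with an interval of 0.97 to 3.77 that included 1. Its ratio was 1.38 (1.04 to 1.83) in AT, above that of *OGN*, and 0.90 (0.18 to 2.73) in BM. The share of *TOP2A*-positive cells among *ASPN*-positive and *ASPN*-negative cells was 4.61% against 9.79% in AT, 7.27% against 12.9% in BM and 2.78% against 9.16% in PB.

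Other genes of the pathway were taken from fixed lists, and their counts past 2-fold are to be read against the same percentages of genes as those of the members. Of 10 further SLRP and neighbouring genes, 5 had enough UMIs to be compared. *PODN* (podocan) was higher in AT, at 5.68 CPM against 1.67 CPM in BM and 1.06 CPM in PB, and *EPYC* (epiphycan) was at 1.10, 2.98 and 6.70 CPM. *TSKU* (tsukushi), at 26.8, 29.0 and 44.8 CPM, and *ECM2*, at 17.7, 17.4 and 14.5 CPM, passed in no comparison.

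The sulfated chains of SLRPs are built by glycosyltransferases and sulfotransferases. Of 16 compared genes for chondroitin and dermatan sulfate chains, 0 were higher and 2 lower in AT than in BM, *CHST15* (0.550 against 7.51 CPM) and *CHSY1* (7.18 against 18.4 CPM). None passed between PB and BM, and *CHST15* alone passed between AT and PB, where it was at 5.77 CPM. The epimerase gene *DSE*, which turns chondroitin into dermatan sulfate, was at 38.3, 71.3 and 55.6 CPM in AT, BM and PB. Of 5 compared genes for keratan sulfate chains, 2 were lower in AT and 3 lower in PB than in BM. These were *B3GNT2*, which extends the chain, at 10.3, 26.9 and 10.7 CPM, *CHST2* in both, and *FUT8*, at 29.0, 50.1 and 23.9 CPM, in PB alone.

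SLRPs act on collagen fibrils and on the proteins that bind them. Of 14 compared genes for such fibril partners, 3 were higher and 3 lower in AT than in BM, 5 higher and 1 lower in PB than in BM, and 3 higher and 4 lower in AT than in PB. *COL1A1*, a fibrillar collagen gene, was at 6259 CPM in AT, 2700 CPM in BM and 6036 CPM in PB, and so had BM as its low source, as *ASPN* did. *COL6A3*, a collagen VI chain gene, was at 29.7, 214 and 506 CPM, and *TNC*, encoding tenascin C, at 5.18, 61.4 and 139 CPM, both lowest in AT, as *LUM* and *OMD* were. *COL14A1* had 305 UMIs in AT and 0 in BM and PB.

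Of 7 compared genes for proteases that cleave SLRPs, 3 were lower in AT and 3 lower in PB than in BM. *MMP14*, a membrane-bound collagenase gene, was at 22.9 CPM in AT, 89.2 CPM in BM and 28.1 CPM in PB, and *MMP13* had 0, 338 and 2 UMIs. Between AT and PB, *ADAMTS5* was higher (6.45 against 2.57 CPM) and *ADAMTS4* lower (1.38 against 7.26 CPM) in AT. Of 12 compared genes for growth factors and receptors that bind SLRPs, 1 was higher and 6 lower in AT than in BM. Between PB and BM, 2 were higher and 3 lower in PB, and between AT and PB, 3 were higher and 6 lower in AT. Without an upper UMI limit, 3 rather than 5 of them passed between PB and BM, where 8.17% of genes did. With a pseudocount of 25 CPM, 0 of them passed between AT and BM, where 1.76% of genes did. *TGFB1* and *TGFB3* were lowest in AT and highest in PB, at 19.7, 34.0 and 73.7 CPM and at 21.2, 49.5 and 115 CPM, while the co-receptor gene *TGFBR3* had the reverse order, at 20.1, 7.18 and 2.98 CPM.

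Markers of other cell types were also compared over the sources. With 3 libraries few orders are possible, so an order shared with a member, here or among the genes above, carries no finding. The bone markers *RUNX2*, *SP7* and *ALPL* summed to 3.90 CPM in AT, 124 CPM in BM and 368 CPM in PB, and all 3 were lower in AT, as *OMD* and *LUM* were. Smooth muscle markers (5 of 5 detected) summed to 1459, 1118 and 700 CPM, in the order AT, BM and PB that *OGN* and *PRELP* also had, although *ACTA2* (721, 763 and 613 CPM) and *CNN1* (106, 162 and 33.1 CPM) were highest in BM. The 8 proliferation genes summed to 333, 728 and 328 CPM, highest in BM, where *ASPN* was lowest. Among *TOP2A*-negative cells, 5, 3 and 5 members passed 2-fold in AT against BM, PB against BM and AT against PB, where 11.4%, 7.78% and 10.5% of genes did, and 5 of the 8 proliferation genes were past 2-fold between AT and BM in these cells and 4 between PB and BM. Without BM cluster 4, 0 and 1 of them passed, and 5 and 3 members did, where 11.5% and 7.13% of genes did. Tendon markers summed to 7.63, 4.15 and 3.46 CPM with *TNMD* at 0 UMIs, cartilage markers to 1.63, 12.7 and 6.90 CPM with *COL2A1* at 0, adipocyte markers to 2.10, 3.70 and 0.120 CPM, and endothelial markers to at most 0.192 CPM with *KDR* at 0. The part of these cell types in the differences between sources was not tested.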

How the data were processed

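The scRNA-seq libraries held MSCs of AT, BM and PB of 1 mare, 1 library per source. Per the labels and the study's methods, the authors used Cell Ranger and genome build EquCab3.0 for barcodes and mapping and ESAT for counting, and the matrices they deposited hold raw UMI counts, in whole numbers, for each gene in each barcode. Tables of the authors' own comparisons were not used.

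A barcode was taken as a cell at 2500 to 15000 UMIs with mitochondrial UMIs no higher than 3%, and 0 columns lay outside the mapped samples. Depth per cell was a median of 6874.5 to 7750 UMIs, and 3 UMIs over a source correspond to 0.0721 to 0.0750 CPM. Folds are ratios of CPM with exact conditional binomial 95% intervals; levels have exact Poisson and shares Clopper-Pearson intervals (SciPy 1.17.1), all for counting error only. Members past a fold were counted on log2(CPM + 1), with a pseudocount of 1 CPM. Cells were thinned once at random to 2500 UMIs. No doublet caller removed cells; leaving out the 5% with the highest Scrublet score (Scanpy 1.11.5) was an alternative.

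For clusters and phases, Seurat 5.3.0 (R 4.3.3, sctransform 0.4.2) was run on 3000 variable genes less the 8 members, with mitochondrial percentage and cell cycle difference regressed. Smart local moving at resolution 0.6 used 14 principal components for AT, 23 for BM and 20 for PB. edgeR 4.0.16 gave TMM factors only. The arithmetic was tested on simulated counts. With 1 library per source no p-value was computed. The alternatives were other barcode limits, thinning, a window of depth, removal of shared barcodes or likely doublets, 25 CPM as the pseudocount, TMM factors, averages of the CPM of single cells, other definitions of cycling cells, and other clusterings; comparisons inside clusters and without BM cluster 4 were added after seeing the data.

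The 8 genes and the lists (MSC, blood and immune, endothelial, smooth muscle, tendon, cartilage, bone, adipocyte and proliferation markers, further SLRPs, chain enzymes, fibril partners, proteases, growth factors and receptors) were chosen with earlier results of these data known. All 8 members, the 5 MSC markers and up to 4 genes of each other list are named, those with the highest CPM or past 2-fold or at 0 UMIs, and genes named for clusters and correlations were the leading ones. Protein and promoter sequences were not used here, and positions are not given because the annotation at hand is of another assembly.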

Additional observations from a re-analysis of the deposited data

Results flagged for a closer look

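The association of *LUM* with *ASPN* over cells had a different sign in AT than in the other sources. In thinned cells, *LUM* in *ASPN*-positive over *ASPN*-negative cells was at a ratio of 0.848 in AT (95% interval 0.821 to 0.876), 1.149 in BM (1.11 to 1.19) and 1.164 in PB (1.15 to 1.18). In AT this was 1032 against 1217 CPM, in BM 5051 against 4394 CPM and in PB 4983 against 4281 CPM. The difference between sources was not tested, since each was 1 library, *ASPN* UMIs in BM cells could also be free RNA, and the *TOP2A*-positive share was lower among *ASPN*-positive cells in all 3 libraries. The Pearson coefficient of *LUM* with *ASPN* over cells was -0.08 in AT, 0.04 in BM and 0.15 in PB.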

How the results depend on the processing

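No paired analysis was possible because each source was a single library, and for the same reason no library could be left out. Of 93 alternative counts of members past a fold, 80 stayed within 1.5 times the reported count. With a pseudocount of 25 CPM, 3 members passed 2-fold in AT against BM and 3 in AT against PB (5 in both as reported), because *FMOD* and *PRELP*, with few UMIs, no longer did, and the share of all genes past 2-fold went from 11.0% and 10.4% to 1.76% and 1.52%. In PB against BM it left 2 members, without *FMOD* (log2 difference -1.82 to -0.71), and 1.08% of genes. With it, 2 members in AT and 4 in PB were more than 1.5-fold lower in cycling cells, where 0.153% and 0.322% of genes were. It also moved the log2 difference of *OMD* to -1.34 for AT minus BM and -1.37 for AT minus PB. That of *ASPN* went from 3.719 to 2.801 for AT minus BM and from 4.077 to 3.136 for PB minus BM. That of *OGN* went from -2.166 to -1.435 for PB minus BM and from 2.829 to 1.994 for AT minus PB. All of these stayed past 2-fold. The count in cycling cells was 2 in AT for cells with 6000 to 9000 UMIs (11.1% of genes), 4 in PB for thinned cells (14.5%), and 1 in AT (0.781%) and 0 in PB (0.568%) when cells called S or G2M replaced *TOP2A*-positive cells. Inside clusters, the members past 1.5-fold in either direction, with the share of all genes, were 3 in AT cluster 3 (39.4%), 0 in AT cluster 7 (22%), 3 in BM cluster 1 (36.1%), 1 in BM cluster 3 (16.8%), 4 in BM cluster 4 (14.1%) and 4 in PB cluster 6 (20.4%), of which 1 in AT cluster 3 and 2 in PB cluster 6 were higher in cycling cells. The causes were not tested. *PRELP* in PB was reversed in thinned cells, at a log2 difference of 0.17. *LUM* and *FMOD* in AT, which had not passed 1.5-fold, were higher in cycling cells under some settings, by up to 0.29 for *LUM* (S or G2M call) and 0.07 for *FMOD* (6000 to 9000 UMIs). Of 552 alternative values of single members, 504 kept both direction and side of the fold. The counts between clusters were 4 in AT and 6 in PB under every setting run and 6 to 7 in BM. Depth limited *FMOD*, *PRELP* and *OMD*, which had 6 to 121 UMIs in the cycling cells of a source.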

Other observations

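SLRP levels in 3 clusters not described above are given here as values. The smallest PB cluster, cluster 10, of 40 cells led by the interferon-inducible genes *CXCL10* and *GBP5*, had 1359 CPM of *DCN*, 4682 CPM of *LUM* and 349 CPM of *ASPN*, against 1144, 4535 and 389 CPM in PB as a whole. AT cluster 6, led by *ID1*, *ID2* and *ID3*, which encode inhibitors of basic helix-loop-helix factors induced by BMP signals, had 2265 CPM of *DCN* and 1351 CPM of *LUM*, both above the source, while *ASPN*, at 309 CPM, was near it. PB cluster 8, in which *IFITM5*, a gene of bone-forming cells, was the second leading gene after one without a symbol, had 44.0 CPM of *OMD* and 882 CPM of *BGN*, against 58.2 and 696 CPM in PB as a whole.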
